A study of Arabidopsis thaliana with 4 samples.

Results

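Cysteine-rich receptor-like kinases (CRKs) of Arabidopsis thaliana were followed as a family of 42 loci, 20 of them side by side in a tandem cluster on chromosome 4 (AT4G23130 to AT4G23320) and 22 elsewhere, called dispersed here. Members were taken by locus with no threshold on a measured value, although the family was picked with earlier results of these data known. Of 25347 loci with a probe on the arrays, 32 were CRK genes, matched by 41 probes. The other 10 members, 6 of the tandem cluster and 4 dispersed, had no matched probe and were not analysed here: RKF2 (CRK1), CRK8, CRK12, CRK16, CRK18, CRK20, CRK24, CRK28, CRK34 and AT4G11500. A further 3 dispersed genes, CRK32, CRK33 and CRK39, were not well above background and were not tested. That left 29 genes, 14 in the tandem cluster and 15 dispersed, each represented by its brightest probe.

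The study set wild-type seedlings of the strain Col against seedlings with the genotype vim1,2,3, a triple mutant per the series title. Both kinds were 14-day-old seedlings raised on 1/2 B5 under a day of 16 h light and 8 h darkness, and were taken 6 h into the light phase. On each of 4 Agilent 2-colour arrays, Col RNA was labelled with Cy3 and vim1,2,3 RNA with Cy5, and dyes were not swapped, so that genotype and any dye effect of a probe cannot be told apart. The arrays held 4 independent biological samples per the series design. The labels name neither the alleles nor how many seedlings went into a sample.

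CRKs are transmembrane kinases. Outside the cell they carry DUF26 domains, each built around a conserved pattern of cysteines, and inside it a serine/threonine kinase domain. Many family members respond to salicylic acid, pathogens and extracellular reactive oxygen, and several have been tied to pattern-triggered immunity, the defence that starts when receptors such as FLS2 and EFR bind microbial peptides. VIM proteins bind methylated DNA and are needed to keep CG methylation through cell division.

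Facts of the whole series bear on how the values can be read. On arrays 1 to 4 the median spot signal was 670.5, 637, 1270.5 and 966 in Col and 949, 967.5, 1718 and 1312 in the other RNA. Arrays 1 and 2 were thus dimmer, with 75.8% and 77.8% of Col spots well above background, against 85.2% and 84.3% on arrays 3 and 4. The part of this in the results was not tested, and the number of arrays limits the precision. VIM1 fell on every array, at -2.22, -2.46, -1.61 and -0.74 (log2 ratio, limma adjusted p = 0.0256), a call lost without array 1 or 3. VIM2 was at -1.42, -1.31, 1.82 and 1.11 and VIM3 at -1.06, -1.29, 1.61 and 0.25 on arrays 1 to 4, against the genotype label on arrays 3 and 4. The positions of these probes and of the mutations were not known here, so the text speaks of RNA labelled vim1,2,3. All 4 leaf markers were saturated in that RNA on all arrays and were not called. The 4 root markers tested were not called either, and EXPA7 was not above background. Of the seed markers, CRU1, CRU3 and SESA1 were not above background and OLEO1 was not called. Of 4 flower and pollen markers 1 fell, PI, a floral organ identity gene, at -2.20 ± 0.69 (SD, n = 4, limma adjusted p = 0.0115), a call lost without array 3. The summed signal of these 4 was 1481 to 3442 over arrays in Col and 827 to 1107 in the RNA labelled vim1,2,3; its part in the results was not tested. The RNA was from whole seedlings, so more cells of a type and more RNA per cell cannot be told apart.

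Across 20447 genes tested, 648 were called higher in the RNA labelled vim1,2,3 (3.17%) and 436 lower (2.13%). A call needed a Benjamini-Hochberg adjusted p under 0.05 by limma over all genes and a change of at least 2-fold. Genes called higher made up 59.8% of these calls, and 41.7% or 46.0% where the processed signals or the series matrix replaced the corrected spot signals.

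Of the 29 CRK genes tested, 7 rose, 0 fell and 22 were not called. The 7 were CRK5, CRK6, EP1 (also named CRK9), CRK11, CRK15 and CRK19 in the tandem cluster and CRK37 outside it. That is 24.1% of the CRK genes tested, against 3.17% of all genes. At an unadjusted p under 0.05, 16 CRK genes lay above 0 (15.1% of all genes did) and 1 below (18.3% of all genes). The mean ratio was above 0 for 25 of the 29 (45.8% of all genes) and at least 2-fold up for 12 (4.92% of all genes), and the median over the 29 was 0.74 against -0.05 over all genes tested. A gene that was dim in Col could enter the tested set through the other RNA alone, as CRK37 did, so the 29 are not a neutral sample of the family. With no filter on dim probes the 32 matched members had a median of 0.67.

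Each of the 7 calls was lost without array 1, 3 or 4, and that of CRK5 without array 2 as well. A fit on fewer arrays also has fewer degrees of freedom. Leaving out array 1, array 3 or array 4 left 0 CRK genes called, while 1.5%, 0.861% and 0.929% of all genes were still called higher by limma. The adjusted p of the 7 genes was then 0.0596 to 0.113, 0.112 to 0.168 and 0.104 to 0.147. Leaving out array 2 gave 12 CRK genes called, against 4.74% of all genes, with 6 of the 7 among them and CRK5 lost (adjusted p = 0.0697). Arrays 1 and 2 alone, without the arrays on which VIM2 and VIM3 went against the label, gave 0 CRK calls (0.259% of all genes) and a CRK median of 0.57. There the 7 genes had means from 0.80 (CRK37) to 1.81 (EP1), and limma adjusted p values of 0.393 to 0.463.

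Other settings ended some of the calls. With processed signals 4 CRK genes were called (2.74% of all genes), without CRK5, CRK6 and CRK11. With each RNA as a sample of its own, not paired by array, 4 were called (1.88% of all genes), without CRK5, CRK11 and CRK19. EP1, CRK15 and CRK37 were called in both.

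**Figure D1:**
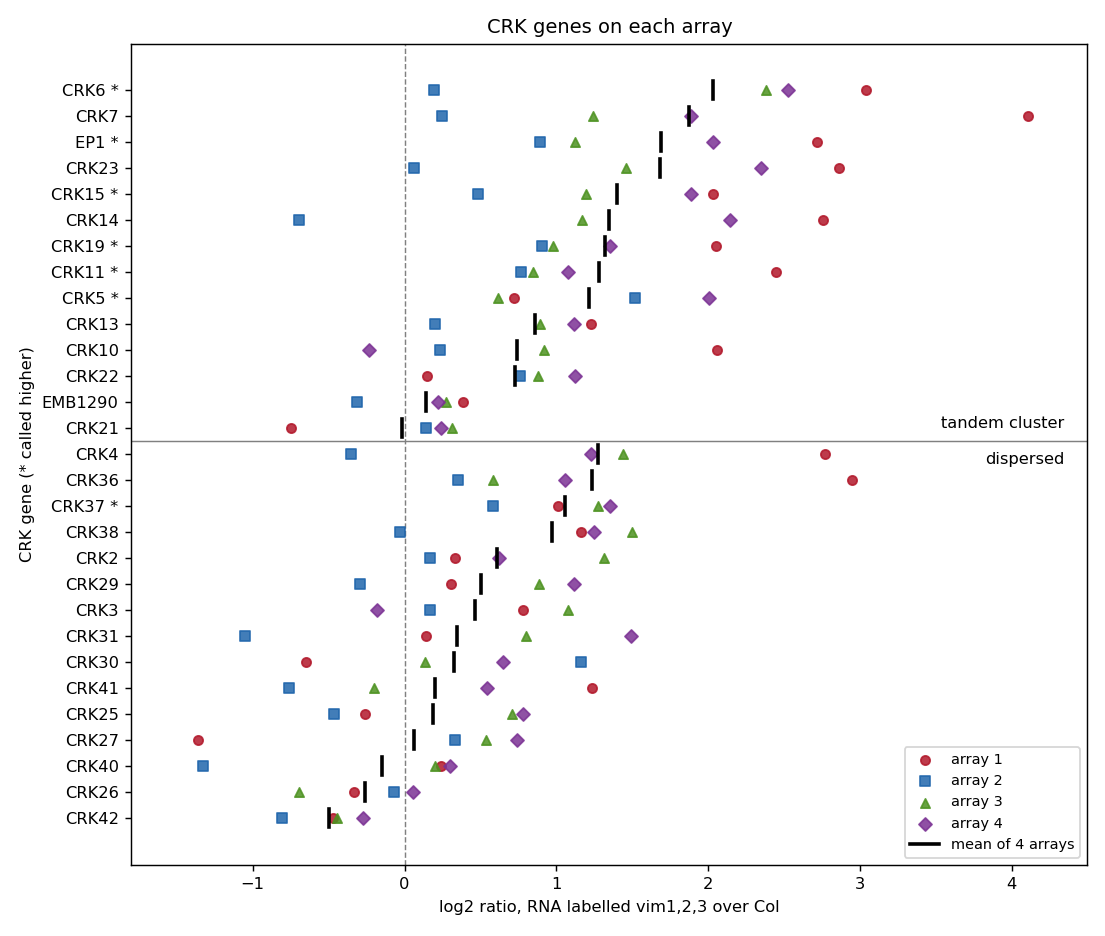
Ratios on the log2 scale, RNA labelled vim1,2,3 against Col (x axis), for each of the 29 CRK genes tested (y axis), with 1 point per array, a black bar for the mean of 4 arrays and a star for genes called higher. Tandem cluster genes stand above the line and dispersed genes below it. CRK7 reached 4.11 on array 1 and lay at 0.25 on array 2, the widest spread among these genes.

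CRK6 and CRK7 are kinases needed for tolerance of extracellular reactive oxygen. CRK6 (AT4G23140), which also associates with FLS2, had log2 ratios of 3.04, 0.19, 2.38 and 2.53 on arrays 1 to 4. Its normalized log2 signal was 8.68, 10.14, 8.95 and 8.41 in Col and 11.72, 10.33, 11.33 and 10.94 in the RNA labelled vim1,2,3. The signals of the RNAs did not overlap, and array 2 stood apart with the highest Col signal and the lowest in the other RNA. The mean was 2.03 ± 1.26 (SD, n = 4), a 4.1-fold rise with an adjusted p of 0.0422 by limma. A dimmer CRK6 probe read 2.76, -0.04, 2.24 and 2.39.

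CRK7 (AT4G23150) had ratios of 4.11, 0.25, 1.25 and 1.89. It was above 0 on 4 of 4 arrays, but array 1 was far above array 2 and the signals of the RNAs overlapped. At 1.87 ± 1.64 it was not called (limma adjusted p = 0.0828).

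EP1 (AT4G23170) reached the scanner's ceiling. Its unnormalized spot signal was 6395, 20754, 18511 and 9543 in Col, while in the RNA labelled vim1,2,3 the spot was saturated at 65290 on 4 of 4 arrays. Ratios were 2.72, 0.89, 1.12 and 2.03, and the normalized signals did not overlap. Because the ceiling caps the numerator, the rise within this fit is given as at least 3.23-fold (measured 1.69 ± 0.84, SD, n = 4, limma adjusted p = 0.0317). For the same reason the SD and p do not measure the spread of the RNA labelled vim1,2,3 between samples. The measured value depended on the setting, from 1.35 to 1.96 over 13 alternatives, and was 1.59 with processed signals.

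CRK15 (AT4G23230) had ratios of 2.03, 0.49, 1.20 and 1.89. Its normalized signal was 8.91, 8.96, 9.33 and 8.77 in Col and 10.94, 9.45, 10.53 and 10.65 in the RNA labelled vim1,2,3, with no overlap. The rise was 2.64-fold (1.40 ± 0.71, SD, n = 4, limma adjusted p = 0.0339). A dimmer CRK15 probe gave smaller ratios, at 0.86, 0.38, 1.00 and 0.97, and with the mean of both probes the value was 1.10.

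CRK19 (AT4G23270), whose forced expression triggers hypersensitive-like cell death, had ratios of 2.06, 0.91, 0.98 and 1.36. All 4 arrays were near or above 1, and array 1 was the highest. The rise was 2.5-fold (1.32 ± 0.53, SD, n = 4, limma adjusted p = 0.0257). The highest Col signal, 10.98 on array 3, lay just under the lowest of the RNA labelled vim1,2,3, 10.99 on array 2. Without pairing by array its adjusted p was 0.138, against 0.018 to 0.393 over its 13 alternatives.

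CRK11 (AT4G23190) had ratios of 2.45, 0.77, 0.85 and 1.07, and its dimmer probe 2.08, 0.04, 1.04 and 1.23. Its signal differed more between arrays than between the RNAs. In Col it was 9.74, 8.98, 11.87 and 11.48, and in the RNA labelled vim1,2,3 12.19, 9.75, 12.71 and 12.56, so the groups overlapped although each array showed a rise. The mean was 1.28 ± 0.79 (SD, n = 4, 2.44-fold, limma adjusted p = 0.0469). When the channels were compared without pairing by array, the adjusted p was 0.398, against 0.0347 to 0.412 over its 13 alternatives.

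CRK5 (AT4G23130), which causes cell death when overexpressed, was the called member whose lowest ratio was not on array 2. Its ratios were 0.72, 1.52, 0.61 and 2.01, with arrays 2 and 4 high and arrays 1 and 3 low. The Col signal on array 3, 11.16, exceeded that of the RNA labelled vim1,2,3 on array 1, 11.14, so the groups overlapped. The rise was 2.32-fold (1.21 ± 0.66, SD, n = 4, limma adjusted p = 0.0405), and it fell from the calls without pairing by array (adjusted p = 0.0781, against 0.0365 to 0.409 over its 13 alternatives).

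CRK37 (AT4G04500) was the dispersed gene that rose. Its unnormalized spot signal was 80.5, 68, 83 and 76 in Col, not well above background on any array, and 363.5, 164, 310.5 and 293 in the RNA labelled vim1,2,3, well above background on 3 of 4 arrays. Ratios were 1.01, 0.58, 1.28 and 1.36, the tightest spread among those called. Against the lowest Col signal of any probe well above background it was 1.99-fold higher (measured 1.06 ± 0.35, SD, n = 4, limma adjusted p = 0.0256). That floor is not a strict limit of detection, so the value is an approximate bound. This bound lies just under the 2-fold needed for a call, which was made on the measured ratio. The size hangs on the background correction, with 2.65 from the scanner software's processed signals.

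**Figure D2:**
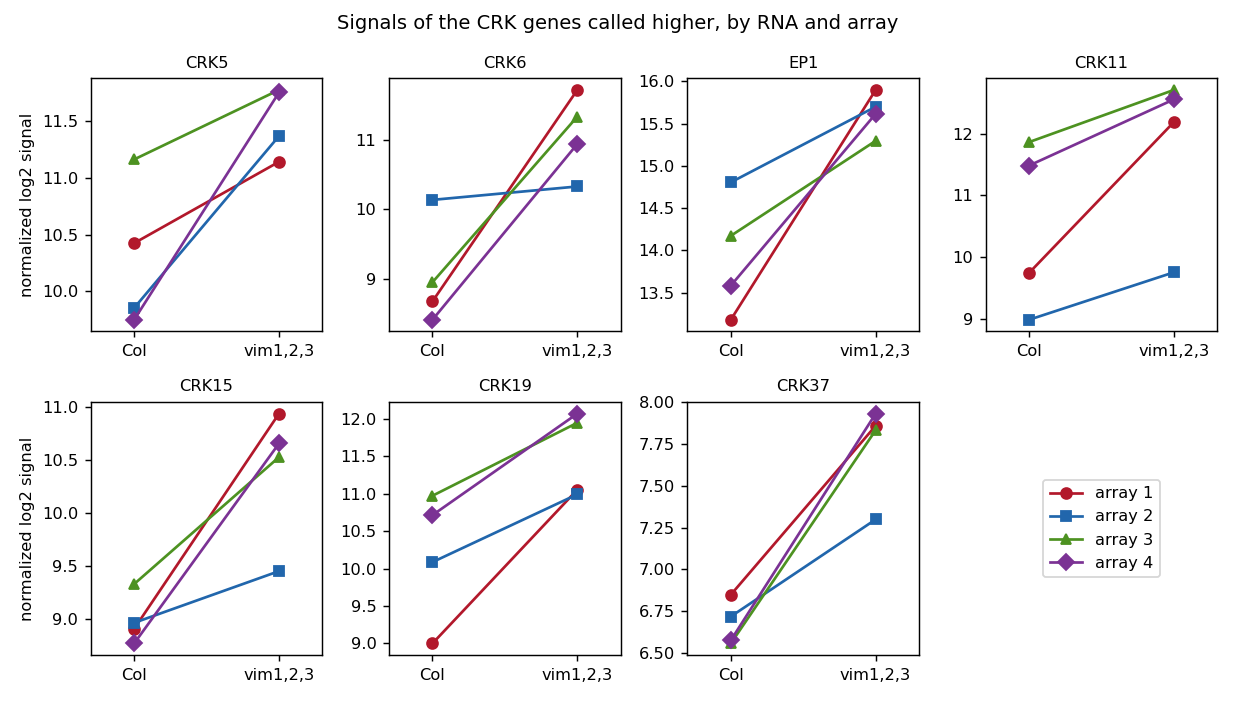
Normalized log2 signal (y axis, scaled for each gene) of the 7 CRK genes called higher in Col and in RNA labelled vim1,2,3 (x axis), with a line joining the RNAs of an array. Every line goes up, and for CRK5 and CRK11 the ranges of the RNAs overlap.

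Along the cluster, members that rose stood among members that were not called. In order, the genes called higher held places 1, 2, 5, 7, 11 and 15 of 20. CRK23 (AT4G23310), at place 19, had ratios of 2.86, 0.07, 1.46 and 2.35. Its signals did not overlap between the RNAs, yet it was not called (1.68 ± 1.22, SD, n = 4, limma adjusted p = 0.059). CRK14 (AT4G23220) had ratios of 2.76, -0.69, 1.17 and 2.14, with array 2 against the other arrays (adjusted p = 0.141), and its dimmer probe showed the same order of arrays at 2.84, -0.21, 1.64 and 2.22.

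CRK13 (AT4G23210), whose overexpression raises salicylic acid and resistance to Pseudomonas, had ratios of 1.23, 0.20, 0.90 and 1.12. Its adjusted p by limma was 0.0493, but the mean of 0.86 ± 0.46 (SD, n = 4) stayed under 2-fold. CRK10 (AT4G23180), known from a gain-of-function allele that alters the vasculature, had ratios of 2.06, 0.23, 0.92 and -0.24, with array 1 far above the others (adjusted p = 0.213). CRK22 (AT4G23300) was above 0 on 4 of 4 arrays at 0.15, 0.76, 0.88 and 1.12, and was not called (adjusted p = 0.0611).

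The remaining tested genes of the cluster, EMB1290 (CRK17) and CRK21, were near 0. EMB1290 (AT4G23250), named for an embryo-defective mutant, had ratios of 0.39, -0.32, 0.27 and 0.22. Its dimmer probe read higher, at 1.44, 0.72, 0.05 and 0.34. CRK21 (AT4G23290) had ratios of -0.75, 0.14, 0.31 and 0.24, with array 1 low.

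**Figure D3:**
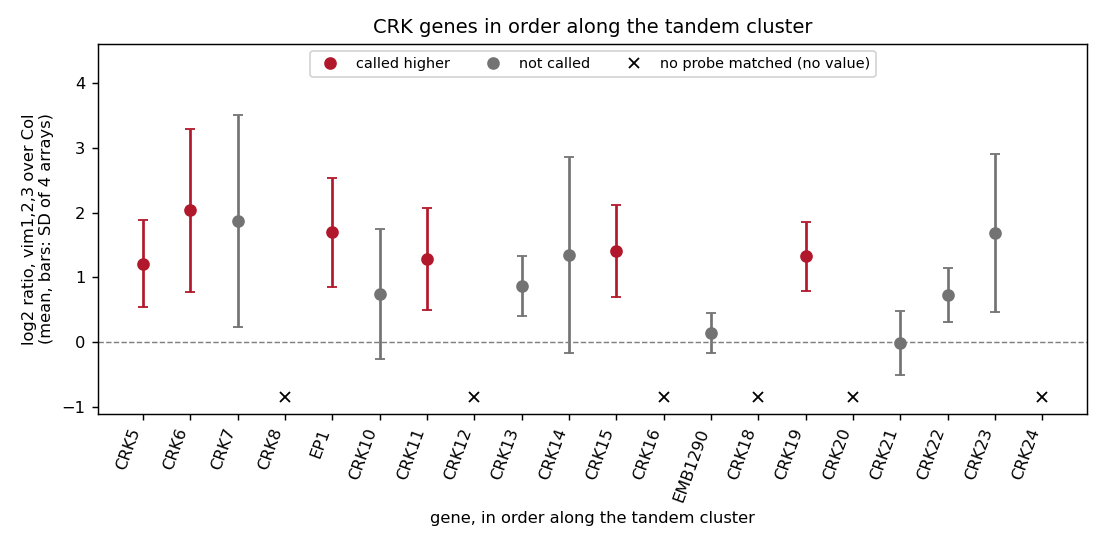
Mean log2 ratio, RNA labelled vim1,2,3 against Col, (y axis, bars are the SD of 4 arrays) for the genes of the tandem cluster in their order along it (x axis). Red points were called higher, grey points were not called, and crosses at the foot mark the 6 genes with no matched probe. CRK6 is at 2.03 and CRK21 at -0.01, while EP1, saturated in the RNA labelled vim1,2,3, is drawn at its measured 1.69, a lower bound within this fit.

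Outside the cluster 1 of 15 genes tested was called (6.67%, against 3.17% of all genes), too few to read as a result about these genes. Means ran from -0.50 (CRK42) to 1.27 (CRK4). Both ends of that range were not called. CRK4 (AT3G45860) and CRK36 (AT4G04490), which like CRK6 associate with FLS2, had means past 2-fold but wide spreads. CRK4 had ratios of 2.77, -0.35, 1.44 and 1.23 (limma adjusted p = 0.117). On array 2 its Col signal was 12.50, against 10.23, 10.61 and 10.89 on arrays 1, 3 and 4. CRK36 had ratios of 2.95, 0.35, 0.58 and 1.06 (adjusted p = 0.106), with array 1 far above the others.

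CRK37 lies in a smaller group of neighbours, AT4G04490 to AT4G04570, with CRK36, CRK38, CRK39 and CRK40. CRK38 (AT4G04510) resembled CRK37 on arrays 1, 3 and 4, with ratios of 1.17, -0.03, 1.50 and 1.25 (adjusted p = 0.066) and Col well above background on 1 of 4 arrays. CRK40 (AT4G04570) had ratios of 0.24, -1.33, 0.20 and 0.30, near 0 except on array 2, and its dimmer probe 0.64, -0.80, 0.32 and 0.42. The median over the 4 genes tested of this group was 1.01. In the group AT4G11460 to AT4G11530, CRK30 and CRK31 were tested, with means of 0.32 and 0.35 and array values from -1.05 to 1.49 for CRK31.

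CRK2 (AT1G70520), which phosphorylates the oxidase RBOHD and takes part in salt tolerance, was above 0 on 4 of 4 arrays at 0.33, 0.17, 1.31 and 0.63 and not called (0.61 ± 0.51, SD, n = 4, limma adjusted p = 0.115). Its neighbour CRK3 was at 0.46. CRK29, CRK41, CRK25, CRK27 and CRK26 had means from -0.26 to 0.51, with arrays on both sides of 0 for each.

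CRK42 (AT5G40380) was the family member below 0 on 4 of 4 arrays (22.6% of all genes were), at -0.47, -0.81, -0.45 and -0.27. At -0.50 ± 0.22 (SD, n = 4) it was not called (limma adjusted p = 0.0811). Its dimmer probe read lower on each array, at -1.19, -1.22, -1.04 and -0.82, with a mean of -1.07. With the mean of both probes CRK42 was at -0.78 (limma adjusted p = 0.0311), under 2-fold and so not called.

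**Figure D4:**
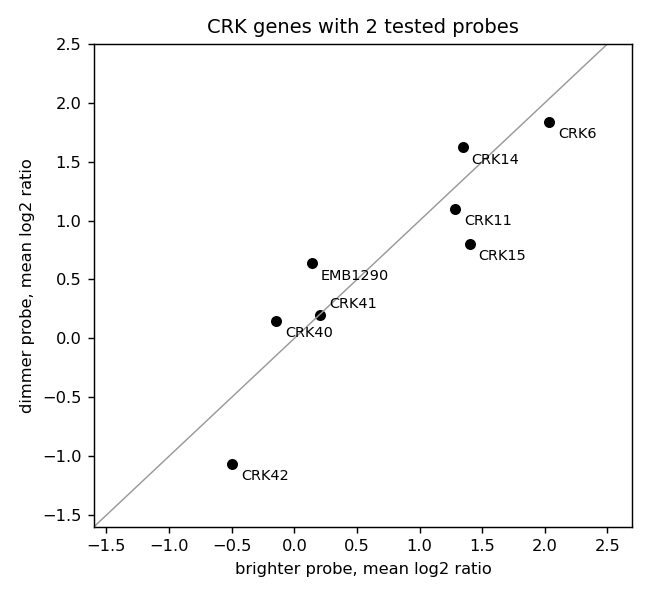
Mean log2 ratio, RNA labelled vim1,2,3 against Col, for the 8 CRK genes with 2 tested probes, the brighter probe on the x axis and the dimmer on the y axis, with the line of equal values. The probes differ by 0.60 for CRK15, 0.57 for CRK42 and 0.50 for EMB1290, and by under 0.30 for the other 5.

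Neighbouring CRK genes are close paralogs. Whether a probe also binds a paralog's RNA was not tested, since no probe sequence was used here.

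Taken as groups, the tandem cluster lay above the dispersed genes. The median log2 ratio over the 14 tandem genes was 1.30, and over the 15 dispersed genes 0.35. The dispersed genes were mixed, as some lie in smaller groups of neighbours. The group AT4G04490 to AT4G04570 (4 tested) had a median of 1.01, nearer to the tandem cluster. The other such groups, with only 1 or 2 genes tested in each, had medians of 0.34 to 0.54, and the 6 tested genes outside any group 0.13. By array, the tandem median was 2.06, 0.24, 0.95 and 1.62, and the dispersed median 0.31, -0.07, 0.71 and 0.74. The median over all genes tested was -0.06 to -0.04 on these arrays. The tandem median was the higher on 4 of 4 arrays, by 1.75, 0.31, 0.24 and 0.88 (0.80 ± 0.70, SD, n = 4), so that array 1 held the largest gap and arrays 2 and 3 small ones. The difference between the groups carries no test, as genes are not replicates of a condition. Without array 1 the tandem median was 1.00, the dispersed median 0.53 and their difference 0.46, against 0.96 with all arrays.

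Detection differed between the groups. Both RNAs were well above background on all arrays for 14 of 14 tandem genes and 8 of 15 dispersed genes, and CRK32, CRK33 and CRK39, the members left untested for low signal, were dispersed too. With only genes above background in both RNAs on all arrays, the tandem and dispersed medians were 1.30 and 0.33. Ratios above 0 on 4 of 4 arrays were found for 10 tandem and 3 dispersed genes, against 18.5% of all genes. Signals with no overlap, the RNA labelled vim1,2,3 above Col, were found for 6 tandem genes and 1 dispersed gene, against 6.9% of all genes.

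Array 2 set itself apart from the other arrays across the family. Over the 29 genes, 18 were above 0 on array 2, against 23, 26 and 26 on arrays 1, 3 and 4. Across these genes, which are not independent replicates, Pearson's r between arrays 1, 3 and 4 was 0.61 to 0.68, and between array 2 and the others 0.15 to 0.29. Across all genes tested the same pairs gave 0.60 to 0.67 and 0.36 to 0.51. In the tandem cluster both RNAs differed on array 2. Around each gene's own mean, the median tandem signal in Col was -1.18, 0.00, -0.27 and -0.78 on arrays 1 to 4, highest on array 2. In the RNA labelled vim1,2,3 it was 1.06, 0.16, 0.73 and 0.81, lowest on array 2. The dispersed genes differed from this, with medians of -0.37, -0.48, 0.18 and -0.19 in Col, lowest on array 2, and -0.04, -0.41, 0.65 and 0.73 in the RNA labelled vim1,2,3. For the 7 called genes the Col median was -1.38, -0.73, -0.36 and -0.92, highest on array 3, and that of the other RNA 1.03, 0.14, 0.87 and 0.88. Over all genes tested these medians stayed between -0.06 and 0.07.

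Receptors and signalling proteins of pattern-triggered immunity were described from a list of 29, of which 28 were tested. Of these, 3 rose (3.17% of all genes did), 0 fell (2.13%) and 25 were not called, with a median of 0.56. At an unadjusted p under 0.05, 14 lay above 0 (15.1% of all genes) and 1 below (18.3%). FLS2 (AT5G46330), the flagellin receptor, had ratios of 1.11, 1.87, 0.41 and 1.08 and rose 2.17-fold (limma adjusted p = 0.0408). EFR (AT5G20480), the receptor for a peptide of elongation factor Tu, had ratios of 1.66, 2.11, 0.22 and 1.13 and rose 2.43-fold (adjusted p = 0.0498). FLS2 and EFR were highest on array 2, where most CRK genes were low. LYK5 (AT2G33580), a chitin receptor, had ratios of 1.77, 0.65, 1.23 and 0.83 and rose 2.17-fold (adjusted p = 0.0323). The 3 calls were lost without array 1, 3 or 4, and 7 of the list were called without array 2 (4.74% of all genes). With processed signals 1 was called (2.74% of all genes), as without pairing by array (1.88%).

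Like the receptor list (array medians of 1.09, 0.00, 0.41 and 0.63), salicylic acid genes shared the order of the arrays with the tandem cluster. Of 16 tested, 5 rose (3.17% of all genes did) and 0 fell (2.13%), with a median of 1.21 and array medians of 3.00, 0.17, 0.82 and 1.17. At an unadjusted p under 0.05, 9 lay above 0 (15.1% of all genes) and 1 below (18.3%). The 1 below was WRKY70 (AT3G56400), with ratios of -0.66, -0.75, -0.65 and -0.42. Its limma adjusted p was 0.0434, and the ratio stayed under 2-fold. WRKY70 was saturated in Col on 3 arrays and in the other RNA on 4. With both sides at the ceiling, its ratios and p do not measure a change in its RNA. This list was chosen with its rise in these data already known. PR1 (AT2G14610), a secreted defence protein, had ratios of 3.92, 1.69, 3.52 and 2.85 (limma adjusted p = 0.0109). Those of PR2 (AT3G57260), a glucanase, were 3.31, 1.44, 1.62 and 2.06 (adjusted p = 0.0201). NIMIN1 (AT1G02450), a regulator that binds NPR1, had ratios of 3.22, 0.38, 1.83 and 2.92 (adjusted p = 0.0414). ICS1 (AT1G74710), the enzyme that starts salicylic acid synthesis, had 2.97, 0.69, 1.16 and 1.67 (adjusted p = 0.0423). Without array 1 the median of the list was 0.61 and 2 of its genes were called (1.5% of all genes). Without array 2 there were 8 (4.74%), and without array 3 or array 4 there were 0 (0.861% and 0.929%). With processed signals 3 were called (2.74%). The part of salicylic acid in the CRK values was not tested.

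Plasmodesmata-located proteins (PDLPs) share the DUF26 domain with CRKs but have no kinase domain. Of 8 tested, 0 rose and 1 fell (2.13% of all genes did), with a median of -0.24. PDLP6 (AT2G01660) had ratios of -1.15, -1.40, -1.78 and -0.77 and fell 2.42-fold (limma adjusted p = 0.0212), a call lost without array 1, 3 or 4 and without pairing by array (adjusted p = 0.0542, against 0.0153 to 0.333 over its 13 alternatives).

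**Figure D5:**
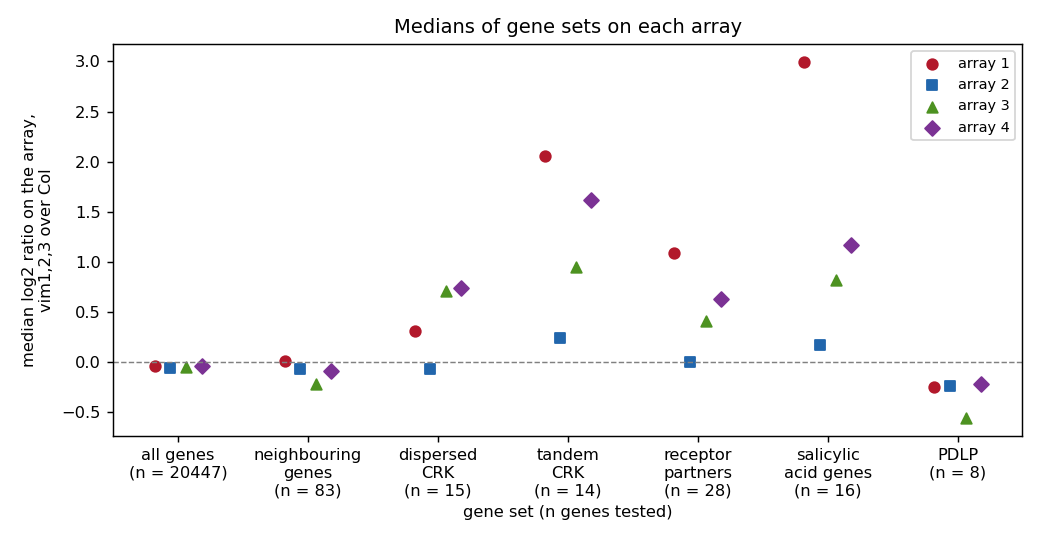
Median log2 ratio, RNA labelled vim1,2,3 against Col, (y axis) on each of the 4 arrays (points) for gene sets (x axis, with the number of genes tested). Array 1 is highest for the tandem CRK genes (2.06), the receptor partners (1.09) and the salicylic acid genes (3.00), and array 2 lowest for each of these (0.24, 0.00 and 0.17).

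Genes beside CRK loci were examined within 5 places in gene order. Of 125 such loci 83 were tested, 3 rose and 1 fell, near the shares over all genes (3.17% and 2.13%), so the counts show nothing about the neighbours as a group. Their median was -0.12 against -0.05 over all genes. Beside the tandem cluster 3 of 11 were tested, at 0.01 (GSH1, which makes a precursor of glutathione), 0.23 (AT4G23110) and -0.30 (AT4G23340), and none was called. AT3G45820, near CRK4, had ratios of 4.97, 4.56, 4.46 and 4.71 and rose 25.5-fold (limma adjusted p = 5.92e-05). Its arrays differed by far less than those of CRK4, and it was called under all 13 alternatives, each single array left out among them. ATK1 (AT4G21270), a kinesin gene near CRK27, rose 3.11-fold at 1.14, 1.05, 2.18 and 2.18 (adjusted p = 0.021), while CRK27 had -1.36, 0.33, 0.53 and 0.74. CNGC13 (AT4G01010), of a family of cyclic nucleotide-gated channels and near CRK41, rose 2.16-fold (adjusted p = 0.0405), and AT1G70550, near CRK2 and CRK3, fell 2.23-fold (adjusted p = 0.0355). ATK1 lost its call without array 3 or 4, and CNGC13 and AT1G70550 lost theirs without array 1, 3 or 4 and with processed signals.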

How the data were processed

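Per the file headers, the scanner software was Agilent Feature Extraction 10.7.3.1. The authors deposited each spot's linear intensity, the median over pixels, with processed intensities and a log10 ratio of red over green. Their deposited series matrix gives log2 ratios. Against the scanner's log ratio it had the same direction and scale (r of 0.998 to 0.999 across probes), with array medians of -0.09, 0.01, -0.04 and -0.03 and its centring unknown. Its 8 probes that differed by more than 1 on an array were not used.

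Median intensities, in place of the planned means, were corrected with normexp (offset 50) and loess in limma 3.58.1 (R 4.3.3), with control spots at weight 0. Outlier spots were left out. RefSeq accessions (TAIR10.1) named 34185 of 43603 probes. Testing a probe required 1 or both channels to be well above background on 3 or more of the 4 arrays, and a gene was its brightest tested probe. Tests were limma's lmFit and eBayes on the 4 ratios. Each ratio pairs the RNAs of an array. The arrays were of 1 slide, so no batch could be tested. Signals by RNA are after Aquantile normalization between arrays. A saturated or dim side makes the change an approximate bound, open to dye bias. Where both sides are saturated, the ratio gives no bound. The fit was tested on simulated data.

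Members and lists were chosen with earlier results of these data known. Named were all tested members, of each list up to 4 called genes with the smallest adjusted p, and WRKY70, added after its values were seen. Which members got values on each array beyond those called, or known for a role, was chosen after their values were seen. Planned sequence features were not analysed here. P-values measure the spread of these 4 samples, except where saturation hides it, as for EP1 and WRKY70.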

Additional observations from a re-analysis of the deposited data

Results flagged for a closer look

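Over 37 sets of 4 array values, 3 had 1 array far from the others, where chance gives about 1 in 20 such sets. For CRK40, array 2 lay at -1.33 and the others between 0.20 and 0.30, a gap of 0.936 of the whole range. CRK21 was low on array 1, at -0.75, with a gap of 0.838 of the range. The PDLP median was -0.56 on array 3 and between -0.25 and -0.22 on the others, with a gap of 0.918 of the range. Without array 2 the mean of CRK40 was 0.25, and without array 1 that of CRK21 was 0.23.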

How the results depend on the processing

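The CRK median (0.74) stayed between 0.57 and 1.11 over 13 alternatives, and the tandem minus dispersed median (0.96) between 0.46 and 1.08. The 1.11 was from the series matrix, where 22 CRK genes were tested and not 29, so it covers a different set of genes. The count of 7 CRK genes called higher was 4 with processed signals, 4 with no replicate block (channels not paired by array), 0 on arrays 1 and 2 alone, an alternative chosen after seeing the data, and 0 to 12 without 1 array each. All genes called higher (648) were 385 with no replicate block, 53 on arrays 1 and 2 alone and 176 to 970 without 1 array. Those called lower (436) were 783 with processed signals, 150 with no replicate block, 0 on arrays 1 and 2 alone and 31 to 595 without 1 array. Fits on fewer arrays have fewer degrees of freedom. The causes of the other moves were not tested.

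Genes not called changed sign. Without 1 array, CRK21 ran from -0.12 to 0.23, CRK25 from -0.0059 to 0.41, CRK27 from -0.16 to 0.53, CRK31 from -0.036 to 0.81, CRK40 from -0.30 to 0.25 and CRK41 from -0.14 to 0.53. CRK40 was at 0.011 with array weights. On arrays 1 and 2 alone CRK25 was at -0.36, CRK27 at -0.51 and CRK31 at -0.46.

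Without array 2, CRK13, CRK14, CRK23, CRK38, CRK4 and CRK7 passed the threshold, and CRK5 lost it. The 7 calls held with median centring and array weights, while CRK6 and CRK11 lost theirs with no filter on dim probes, and CRK11 with the mean of its probes or the series matrix. With no filter on dim probes 2 of the salicylic acid genes were called, and 572 of all genes were called higher. Dim Col signal limits CRK37 and CRK38, and saturation limits EP1.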
